A study of Mus musculus domesticus with 6 samples.

Results

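The 43 genes described here encode the RNA decay machinery that works beside the RNA exosome: the 5'-3' exonucleases, the decapping enzymes, the LSM ring, the deadenylases, the nonsense-mediated decay factors, the Ski complex and its neighbours. They were taken by gene symbol from a list of decay factors by role, drawn up when earlier results of these data were known, and all 43 were found among the 55359 entries of each deposited table. All 43 also passed the filter on low counts that left 13117 genes for testing. RNA was sequenced from BFU-E, the burst-forming progenitors at the start of the red cell lineage, sorted from mouse (Mus musculus domesticus) fetal liver at E14.5. The labels describe them as GFP+ Lin- Kit+ cells that were low for CD24 and CD71. The 3 Cre-negative and 3 Cre-positive samples all carry floxed alleles of Exosc3 (Exosc3 fl/fl), which encodes a subunit of the exosome, and the strain is given as Exosc3-floxed and Vav1-Cre for both groups. Vav1 regulatory sequence drives Cre across blood cells and not in the erythroid lineage alone. The 6 samples came from 3 litters, 2 from each, and whether embryos were pooled is not said. Nothing says that the libraries of a group were independent beyond that, so p-values measure the spread between these samples.

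A messenger RNA is usually degraded after its poly(A) tail has been shortened. From there it can be decapped and digested from its 5' end, or digested from its 3' end by the exosome with the help of the Ski complex. Nonsense-mediated decay removes transcripts on which translation stops too early, and ribosome rescue factors free ribosomes stalled on damaged RNA. The 2 genotypes were compared to ask how the RNA levels of these other routes stood in BFU-E in which the exosome subunit gene Exosc3 was targeted.

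Exosc3 was measured at 51.9, 44.3 and 48.0 CPM (reads of a gene scaled to a common library size) in Cre-negative replicates 1, 2 and 3, against 26.8, 22.1 and 30.2 CPM in Cre-positive replicates 1, 2 and 3. Values in every library are given in that order throughout. The groups did not overlap, and the Cre-positive mean was 54.8% of the Cre-negative mean, with a log2 fold change of -0.87 (SE 0.22). EdgeR did not call that difference (adjusted p = 0.259), whereas DESeq2 called it (adjusted p = 0.00296). The libraries held 89629949 to 124931215 expected counts. The summed erythroid markers were 1937 to 2254 CPM in Cre-negative and 2281 to 2834 CPM in Cre-positive libraries. Of the 13 tested, 9 had positive and 4 negative log2 fold changes (median 0.27), with Kit, Gata2, Tal1 and Hba-a1 negative. EdgeR called 1 of the 13, Car2, beside 0.122% of all tested genes. It found 3 at an unadjusted p under 0.05 (Car2, Sptb and Zfpm1), beside 8.23% of all tested genes, all higher in every Cre-positive library. Among the sort markers, Cd24a was at 134.4, 123.5 and 72.7 CPM against 186.5, 149.6 and 141.9 CPM, a fold of 1.45 without overlap (unadjusted p = 0.036, adjusted p = 0.558, edgeR), and Kit was lower in every Cre-positive library (fold 0.875, adjusted p = 0.614, edgeR). Tfrc (CD71) overlapped, at 250.8, 302.0 and 170.2 CPM against 214.2, 349.0 and 180.9 CPM, a fold of 1.03. Summed neutrophil and monocyte markers were 588 to 1526 CPM in Cre-negative and 232 to 517 CPM in Cre-positive libraries, with a median log2 fold change of -1.66. Of the 10 tested, edgeR called 0 and found 6 at an unadjusted p under 0.05, beside 8.23% of all tested genes. Summed lymphoid markers were 36.6 to 129 CPM against 1.59 to 10.6 CPM, with Dntt and Cd3e at 0 in every library. Of the 5 tested, edgeR called 0 and found 2 at an unadjusted p under 0.05, beside the same 8.23%. Hepatocyte markers summed to at most 1.08 CPM in any library. The summed megakaryocyte (41.6 to 78.2 against 50.3 to 90.6 CPM), mast cell (0.665 to 9.46 against 2.25 to 5.33 CPM) and endothelial and stromal markers (19.1 to 35.8 against 5.68 to 22.4 CPM) overlapped between the groups. The part of these marker differences in the values of the decay genes was not tested. In these bulk samples, fewer cells of a type and less RNA per cell cannot be told apart.

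No decay gene differed between the genotypes at the adjusted threshold of 0.05. EdgeR called 0 of the 43 genes, beside 0.122% of all tested genes, and the smallest adjusted p among the 43 was 0.466. DESeq2 also called 0 of the 43, beside 4.42% of all the genes for which it gave an adjusted p, with a smallest adjusted p of 0.069, and limma-voom called 0, beside 0.152% of all tested genes. At an unadjusted p under 0.05, edgeR found 2 of the 43 (4.65%), Ddx6 and Upf3b, beside 8.23% of all tested genes. The log2 fold changes ran from -0.51 for Pelo to 0.35 for Dcp1b, with 23 positive and 20 negative. Their median was 0.02, and the median over all tested genes was -0.01.

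For most decay genes the interval of the difference was narrow. Every gene had reads in every library, between 780 and 73339 counts, and the mean count per gene ran from 1352 to 62562. The median coefficient of variation of CPM among replicates was 13.0% in Cre-negative and 12.5% in Cre-positive libraries. Among the 7457 tested genes in the same range of mean counts it was 16.8% and 16.7%. The 95% interval of the fold change lay within 2-fold in either direction for 37 of the 43 genes (86.0%). The same held for 41.9% of the other 13074 tested genes. It held for 66.1% of all 8338 genes averaging 1000 counts or more, the decay genes included. The mean count of the decay genes had a median of 8823, and neither set was matched to that level. The median SE of the log2 fold change was 0.168 for the decay genes and 0.231 for the 7457 genes in their count range. The part of read depth in these differences was not tested. For 24 of the 43 the interval lay within 1.5-fold. The 6 genes whose interval reached beyond 2-fold were Dcp1b, Dcps, Lsm1, Lsm6, Dis3l2 and Pelo. With transcript lengths taken into account, as effective length offsets in edgeR or in a fit to log2(TPM + 1), 23 of the 43 intervals lay within 2-fold. Summed over the 43 genes, the level was 4911, 4724 and 4935 CPM in Cre-negative libraries and 4783, 4878 and 4660 CPM in Cre-positive libraries. These sums overlapped, and the Cre-positive mean was 0.983 of the Cre-negative mean.

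**Figure D1:**
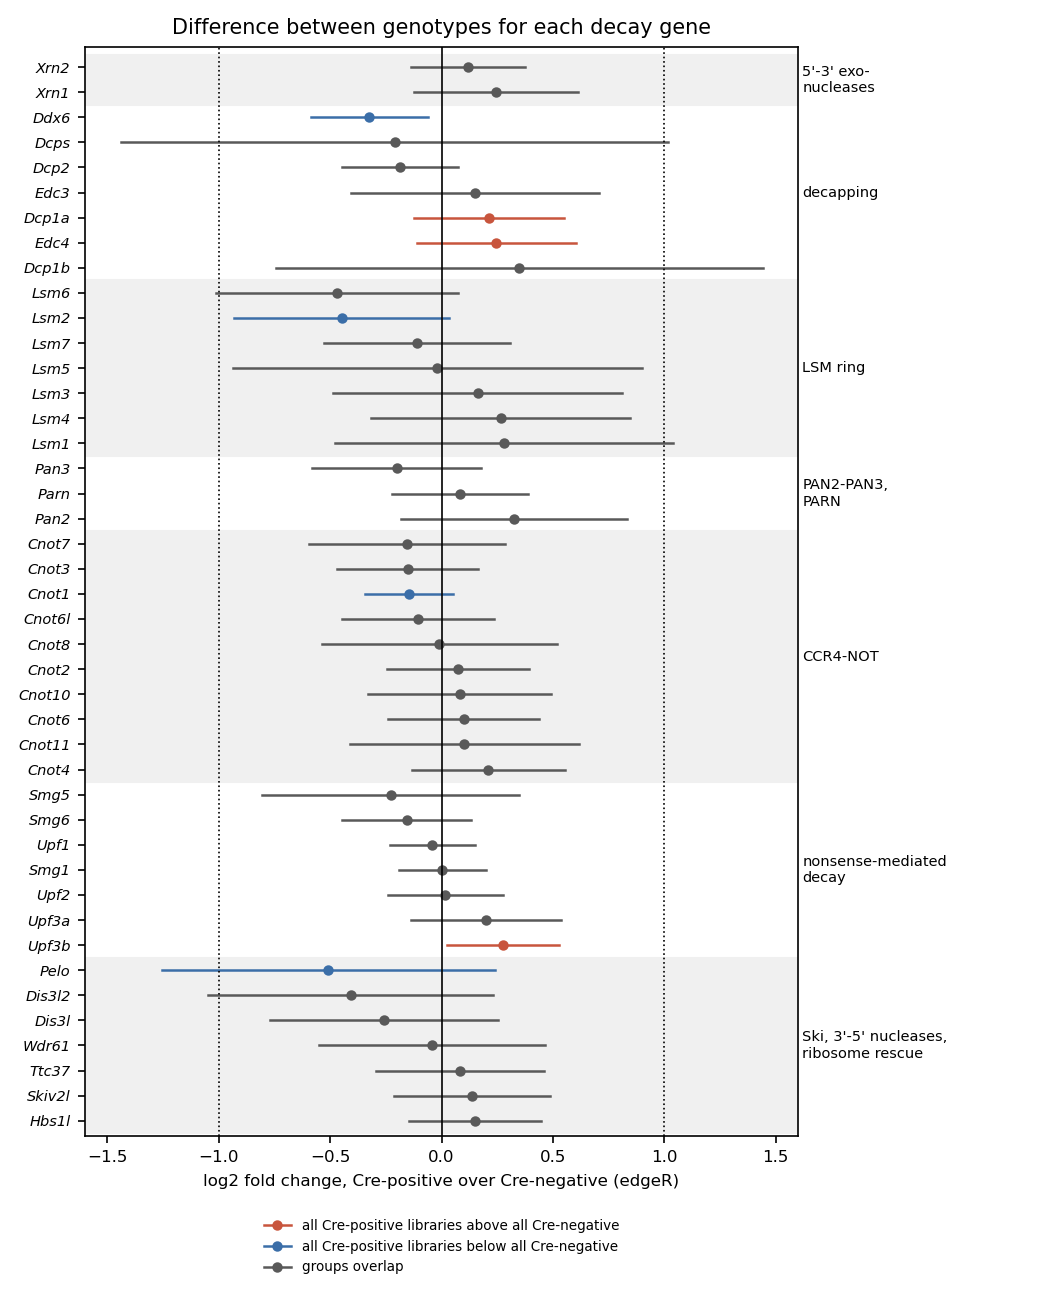
Each point is the edgeR log2 fold change of a decay gene, Cre-positive over Cre-negative, and the bar is its 95% interval (n = 3 libraries per group); dotted lines mark 2-fold. Intervals of 37 of the 43 genes lie between the dotted lines, and blue and red mark the 7 genes whose CPM did not overlap between the groups.

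In CPM the groups did not overlap for 7 of the 43 genes (16.3%), beside 15.2% of all tested genes. In all Cre-positive libraries Dcp1a, Edc4 and Upf3b were higher (3 genes, beside 7.53% of all tested genes) and Ddx6, Lsm2, Cnot1 and Pelo lower (4 genes, beside 7.66%). These 7 are spread over the decapping, LSM, CCR4-NOT, nonsense decay and ribosome rescue factors, as the plot of CPM by library shows.

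**Figure D2:**
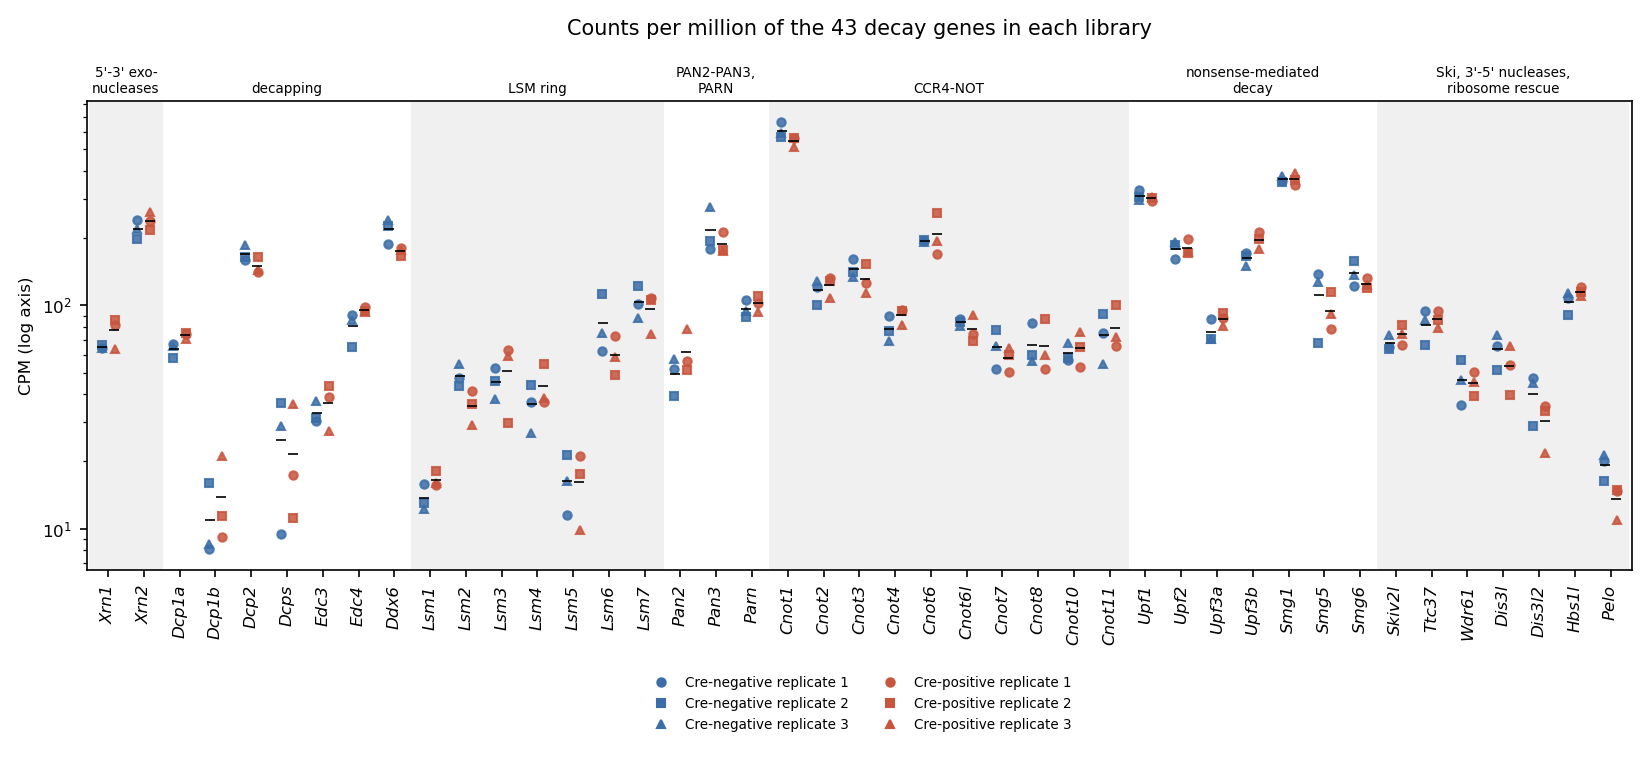
CPM of each of the 43 genes in each of the 6 libraries on a log axis, grouped by role; blue is Cre-negative, red is Cre-positive, marker shape is the replicate number and black lines are group means. Cnot1 is the highest gene, at 511.5 to 660.4 CPM, and the widest spread between libraries is in Dcps, at 9.46 to 36.6 CPM.

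The 5'-3' exonucleases digest RNA whose cap has been removed. Xrn1, the cytoplasmic enzyme, was measured at 64.4, 66.7 and 64.5 CPM in Cre-negative libraries and at 82.0, 85.7 and 64.1 CPM in Cre-positive libraries. The first and second Cre-positive replicates were above all Cre-negative libraries, while the remaining one was the lowest of the 6, and the log2 fold change of 0.24 (SE 0.16) did not pass (adjusted p = 0.849, edgeR). Over the alternatives it ran from 0.16 to 0.84, the highest where transcript length entered the fit. Xrn2, the nuclear enzyme that also acts at transcription termination, stood at 240.5, 198.5 and 220.8 CPM against 239.4, 216.7 and 261.1 CPM. Its groups overlapped (log2 fold change 0.12, SE 0.11). Per transcript length the nuclear enzyme was the more abundant, at 101.5 ± 7.04 TPM (a level scaled for transcript length and library total; SD, n = 3) in Cre-negative libraries against 13.8 ± 1.46 TPM for Xrn1, a ratio of 7.33.

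The decapping group held the gene with the smallest p of all 43. Ddx6, an RNA helicase that links deadenylation to decapping and translational repression, was at 189.1, 226.8 and 242.1 CPM in Cre-negative libraries and at 180.9, 167.3 and 177.6 CPM in Cre-positive libraries. All Cre-positive libraries lay below all Cre-negative libraries, with the gap between 180.9 and 189.1 CPM. The fold was 0.799 (95% interval 0.666 to 0.959; log2 fold change -0.32, SE 0.12), with an unadjusted p of 0.0210 and an adjusted p of 0.466 in edgeR. Over the alternatives the adjusted p ran from 0.069 to 0.737 and the log2 fold change from -0.42 to -0.25. Its TPM was 44.3 ± 6.41 and 34.4 ± 0.81 (SD, n = 3 each), again without overlap, and its mean transcript length varied by no more than 1.03-fold between libraries.

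Dcp2 encodes the enzyme that removes the cap, and Dcp1a and Dcp1b encode its activators. Dcp2 was at 160.0, 165.1 and 186.1 CPM in Cre-negative and 141.8, 164.0 and 143.8 CPM in Cre-positive libraries, and the groups overlapped through Cre-positive replicate 2 (log2 fold change -0.19, SE 0.12). Its direction depended on transcript length, since the log2 fold change ran from -0.26 to 0.38 over the alternatives. Dcp1a was at 67.3, 58.0 and 65.7 CPM against 74.7, 75.6 and 71.1 CPM. It was higher in all Cre-positive libraries, by a log2 fold change of 0.21 (SE 0.15), and did not pass (adjusted p = 0.868, edgeR; 0.15 to 0.62 over the alternatives). Dcp1b was low and uneven, at 8.10, 16.1 and 8.57 CPM against 9.12, 11.4 and 21.2 CPM.

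Edc3 and Edc4 encode scaffolds that bring decapping factors together. Edc4 was at 90.8, 64.9 and 85.8 CPM in Cre-negative and 98.2, 94.8 and 93.5 CPM in Cre-positive libraries. The Cre-positive values lay close together above all Cre-negative values, and the log2 fold change of 0.25 (SE 0.16) did not pass (adjusted p = 0.839, edgeR). Edc3 had the lowest mean TPM of the group over the 6 libraries, with Dcp1b lower in the Cre-negative mean (5.93 against 6.97 TPM), and overlapped at 30.4, 31.4 and 37.2 CPM against 38.9, 43.7 and 27.4 CPM. Dcps, the scavenger enzyme that hydrolyses the cap left after decay from the 3' end, varied 3.87-fold between libraries with no order by genotype, at 9.46, 36.6 and 28.7 CPM against 17.5, 11.2 and 36.1 CPM. The summed group stood at 555 to 654 CPM in Cre-negative and 561 to 571 CPM in Cre-positive libraries, with 4 positive and 3 negative fold changes and a median log2 fold change of 0.15.

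The LSM1 to LSM7 proteins form a ring that binds shortened tails and promotes decapping, and LSM2 to LSM7 also form the nuclear ring with LSM8. Of the 7 genes, 3 had positive and 4 negative log2 fold changes (median -0.02). Lsm2 was at 47.0, 43.6 and 54.6 CPM in Cre-negative and 41.2, 36.2 and 29.1 CPM in Cre-positive libraries. All Cre-positive libraries were lower, at a fold of 0.733 (log2 fold change -0.45, SE 0.21), with an unadjusted p of 0.065 and an adjusted p of 0.664 in edgeR. Lsm6 was at 62.7, 112.4 and 75.2 CPM against 73.1, 48.7 and 58.8 CPM. Its groups overlapped, Cre-negative replicate 2 was the highest library, and the log2 fold change of -0.47 (SE 0.24) ranged from -0.64 to 0.33 over the alternatives. Lsm7, the most abundant of the 43 genes per length, was at 101.0, 122.4 and 87.6 CPM against 108.3, 105.5 and 74.6 CPM, with overlap. Lsm1, the subunit that marks the cytoplasmic ring, was at 15.8, 13.0 and 12.2 CPM against 15.7, 18.1 and 16.0 CPM. It had the lowest mean TPM of the ring in both groups, and the mean TPM of Lsm7 over the 6 libraries was 47.7 times that of Lsm1. Lsm3, Lsm4 and Lsm5 overlapped between the groups, with log2 fold changes of 0.16, 0.27 and -0.02.

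PAN2 is a deadenylase that trims long tails, PAN3 is its RNA-binding partner, and PARN is a separate deadenylase that also matures small noncoding RNAs. Pan2 was at 51.9, 39.1 and 57.5 CPM in Cre-negative and 56.4, 51.4 and 78.3 CPM in Cre-positive libraries. Only Cre-positive replicate 3 lay above all Cre-negative libraries (log2 fold change 0.33, SE 0.23, adjusted p = 0.864, edgeR). Pan3 was at 178.9, 194.3 and 277.5 CPM against 213.6, 176.6 and 176.0 CPM, with Cre-negative replicate 3 the highest. Parn was at 106.0, 89.2 and 94.3 CPM against 102.1, 110.5 and 93.7 CPM, so that its groups overlapped (log2 fold change 0.08, SE 0.14).

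The CCR4-NOT complex removes most of the poly(A) tail. Of its genes 10 are listed here, and Cnot9 was counted among the deadenylation partners. All 10 had a 95% interval within 2-fold, 8 of them within 1.5-fold, and 5 fold changes were positive and 5 negative (median log2 fold change 0.03). Cnot1, the scaffold on which the complex is built, was at 660.4, 565.8 and 590.3 CPM in Cre-negative and 564.6, 565.5 and 511.5 CPM in Cre-positive libraries. The groups did not overlap, but the nearest libraries were 565.8 and 565.5 CPM, and the log2 fold change of -0.15 (SE 0.09) did not pass (adjusted p = 0.803, edgeR). In TPM the Cnot1 groups overlapped, at 165.5 ± 7.70 and 147.0 ± 32.5 (SD, n = 3 each). Cnot11, a subunit of an RNA-binding module of the complex, had the lowest TPM of the group in the mean over the 6 libraries and stood at 75.6, 91.6 and 54.5 CPM against 65.8, 100.1 and 72.0 CPM. In the Cre-negative mean Cnot6l was lower, at 24.3 against 28.8 TPM. The catalytic subunit genes Cnot6, Cnot6l, Cnot7 and Cnot8 had log2 fold changes of 0.10, -0.11, -0.15 and -0.01. Cnot2 and Cnot3, which form a regulatory module, and Cnot10 lay between -0.15 and 0.08, and Cnot4, a ubiquitin ligase, was at 0.21. The 10 genes summed to 1581, 1450 and 1440 CPM in Cre-negative and 1385, 1583 and 1371 CPM in Cre-positive libraries, with overlap.

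In nonsense-mediated decay, the helicase UPF1 is joined by UPF2 and by UPF3A or UPF3B, phosphorylated by the kinase SMG1, and answered by the adaptor SMG5 and the endonuclease SMG6. Upf3b was at 171.7, 165.7 and 149.8 CPM in Cre-negative and 212.8, 197.8 and 179.2 CPM in Cre-positive libraries. All Cre-positive libraries were above all Cre-negative libraries, by a fold of 1.21 (95% interval of the fitted fold 1.02 to 1.44; log2 fold change 0.28, SE 0.11). The unadjusted p was 0.0349 and the adjusted p 0.55 in edgeR, and the adjusted p ran from 0.126 to 0.733 over the alternatives. Upf3b also had the highest mean TPM of the group, at 95.5 ± 4.76 and 135.9 ± 14.1 (SD, n = 3 each) without overlap.

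The other nonsense decay genes overlapped between the genotypes in CPM. Upf1 was at 327.5, 305.3 and 298.0 CPM against 294.1, 303.8 and 306.5 CPM, and Smg1 was at 362.6, 356.5 and 382.1 CPM against 344.8, 365.4 and 393.9 CPM. Both overlapped in CPM, with log2 fold changes of -0.04 (SE 0.08) and 0.00 (SE 0.09). In TPM both were lower in all Cre-positive libraries, Upf1 at 83.7 ± 3.25 and 79.3 ± 2.69 and Smg1 at 62.2 ± 3.04 and 55.3 ± 2.27 (SD, n = 3 each). Smg6, the lowest of the group by mean TPM over the 6 libraries, though not in the Cre-negative mean (45.2 against 43.5 TPM for Upf2), was at 122.3, 158.6 and 137.1 CPM against 132.2, 119.2 and 123.7 CPM, with overlap. Upf2, Upf3a and Smg5 overlapped as well, with log2 fold changes of 0.02, 0.20 and -0.23. The summed group varied least of the 7 role groups, at 1370, 1311 and 1357 CPM against 1348, 1366 and 1350 CPM, a ratio of means of 1.007. All 7 intervals lay within 2-fold.

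The Ski complex, built from SKIV2L, TTC37 and WDR61, feeds RNA to the cytoplasmic exosome. Skiv2l, its helicase, Ttc37 and Wdr61 had log2 fold changes of 0.14, 0.08 and -0.04, and their groups overlapped. Dis3l encodes the exosome's cytoplasmic nuclease and Dis3l2 a nuclease that degrades uridylated RNA without the exosome. Dis3l2 was at 47.3, 28.7 and 44.7 CPM in Cre-negative and 35.3, 33.8 and 21.9 CPM in Cre-positive libraries, and it overlapped through Cre-negative replicate 2 (log2 fold change -0.41, SE 0.28, adjusted p = 0.865, edgeR). Dis3l overlapped at a log2 fold change of -0.26.

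HBS1L and PELO rescue stalled ribosomes, and a short splice form of Hbs1l encodes the mammalian SKI7 protein that joins the Ski complex to the exosome. Pelo was at 20.0, 16.4 and 21.3 CPM in Cre-negative and 14.8, 14.9 and 10.9 CPM in Cre-positive libraries. It was lower in all Cre-positive libraries and had the most negative fold change of the 43 genes (log2 -0.51, SE 0.33), which did not pass (adjusted p = 0.843, edgeR) and has a 95% interval of the fold from 0.419 to 1.18. Hbs1l was at 107.9, 90.7 and 113.4 CPM against 120.4, 114.7 and 110.7 CPM, with overlap (log2 fold change 0.15, SE 0.13).

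Levels of different genes can be compared only per transcript length. In Cre-negative libraries the 43 genes ran from 5.93 ± 1.49 TPM for Dcp1b to 662.8 ± 101.9 TPM for Lsm7 (SD, n = 3), with a median of 45.2 TPM. The median over all tested genes was 13.4 TPM, and 40 of the 43 decay genes lay above it. After Lsm7 came Pan3 at 238.9 ± 82.6, Cnot1 at 165.5 ± 7.70, Lsm2 at 162.4 ± 42.1 and Lsm3 at 142.8 ± 8.15 TPM. Pan3 and Cnot1 differed by less than the SD of Pan3, and Cnot1, Lsm2 and Lsm3 by less than the SD of Lsm2. Cnot1 stood 6.81 times above Cnot6l in TPM. In TPM the groups did not overlap for 7 of the 43 genes, beside 13.5% of all tested genes: Dcp1a and Upf3b were higher, and Ddx6, Lsm2, Upf1, Smg1 and Pelo were lower, in all Cre-positive libraries.

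**Figure D3:**
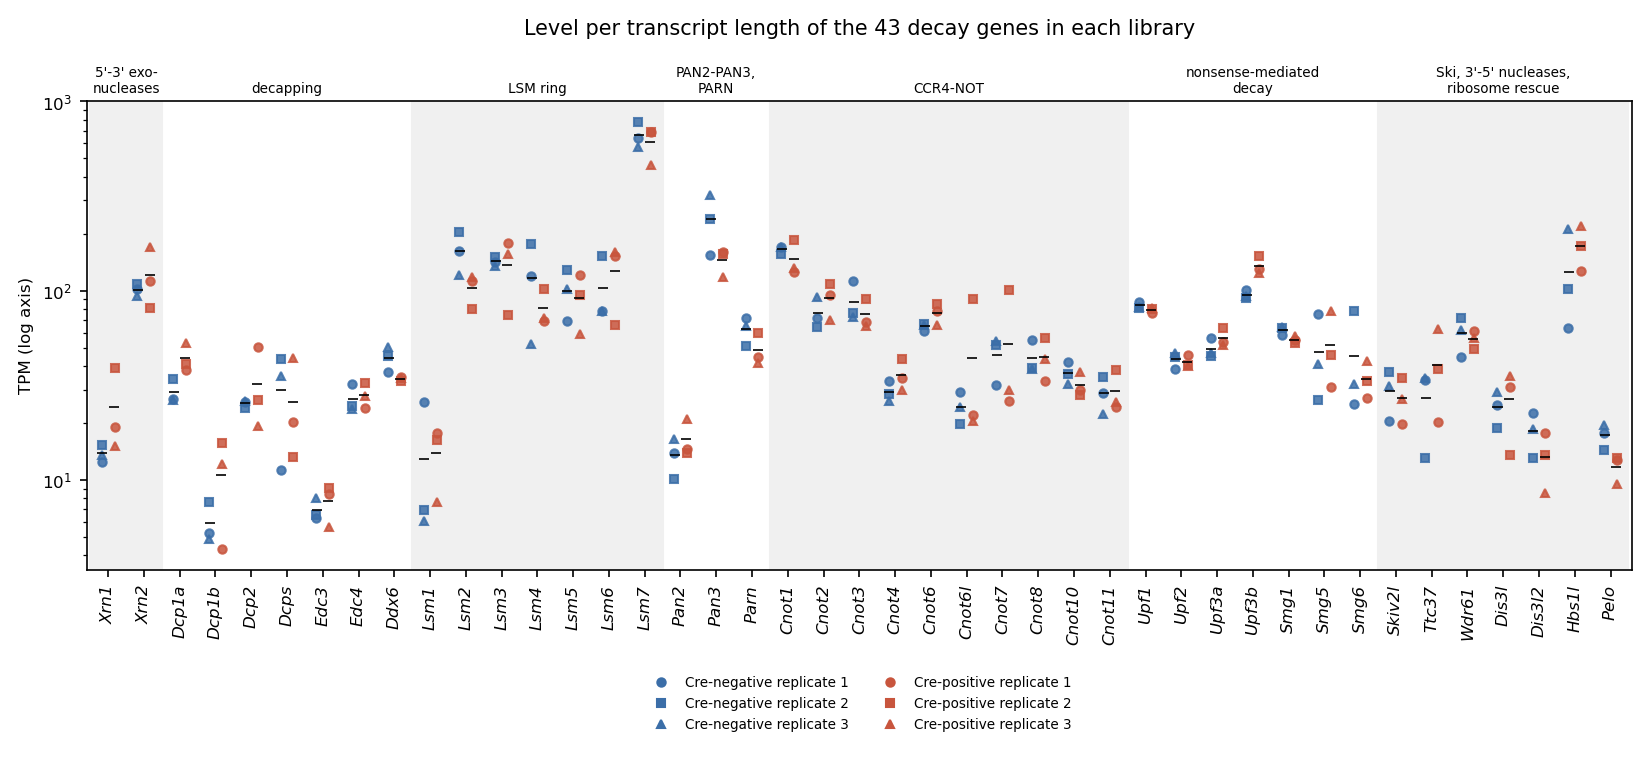
TPM of each of the 43 genes in each of the 6 libraries on a log axis, grouped by role; blue is Cre-negative, red is Cre-positive, marker shape is the replicate number and black lines are group means. Lsm7 is the highest in every library, and Cnot6l and Cnot7 each have 1 Cre-positive library, replicate 2, far above the other 5.

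TPM spread more between libraries than CPM did. The highest library exceeded the lowest by more than 2-fold in 22 of the 43 genes in TPM and in 8 in CPM, and 14 genes had fold changes of opposite direction on the 2 scales. The deposited tables give a mean transcript length for each gene and library, which RSEM weights by the share of each isoform, and these lengths differed between libraries. The longest exceeded the shortest by more than 2-fold in 10 of the 43 genes (23.3%), beside 26.0% of all genes tested for length, and by less than 1.1-fold in 13. The 10 genes were Cnot6l, Ttc37, Cnot7, Lsm1, Dcp2, Hbs1l, Smg5, Dcp1b, Smg6 and Xrn1, and 4 of them were shortest in Cre-positive replicate 2.

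Cnot6l shows how the 2 scales parted. Its mean transcript length was 3673, 5124 and 4232 bases in Cre-negative libraries and 4027, 1130 and 5214 bases in Cre-positive libraries, and its TPM was 29.1, 19.7 and 24.2 against 22.0, 90.6 and 20.6. The library with the short length, Cre-positive replicate 2, had the high TPM, while its CPM of 69.4 was the lowest of the 6. Cnot7 followed the same course in length and TPM, with 2168, 2008 and 1713 bases against 2439, 946.6 and 2714 bases. The short length of Cnot7 was again in Cre-positive replicate 2, and its TPM was 31.6, 51.5 and 54.2 against 26.1, 100.5 and 30.1. In CPM that library, at 60.1, was neither the highest nor the lowest for Cnot7. Hbs1l had 2225, 1299 and 929 bases against 1343, 1047 and 874 bases, with no order by genotype.

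Mean transcript length did not differ by genotype at the adjusted threshold for any decay gene. Pelo, with a single transcript in the tables, has a fixed length, and 0 of the other 42 were called by limma, beside 0.0% of 8739 genes. At an unadjusted p under 0.05 there were 2, beside 4.82% of all genes. Parn was longer in all Cre-positive libraries, at 2685 ± 270 against 2086 ± 159 bases (SD, n = 3 each; log2 difference 0.36, unadjusted p = 0.0165, limma). Its TPM was 0.776 of the Cre-negative level while its CPM was 1.06 of it. Upf3b was shorter in all Cre-positive libraries, at 1938 ± 159 against 2259 ± 80.8 bases (log2 difference -0.22, unadjusted p = 0.0294, limma), and its TPM fold of 1.42 exceeded its CPM fold of 1.21. Lengths also did not overlap for Cnot11, which was longer, and for Xrn1 and Lsm6, which were shorter in Cre-positive libraries. These 5 genes stand beside 8.9% of all genes whose lengths did not overlap. Upf1 and Ddx6 kept their lengths within 1.006-fold and 1.03-fold across the 6 libraries.

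**Figure D4:**
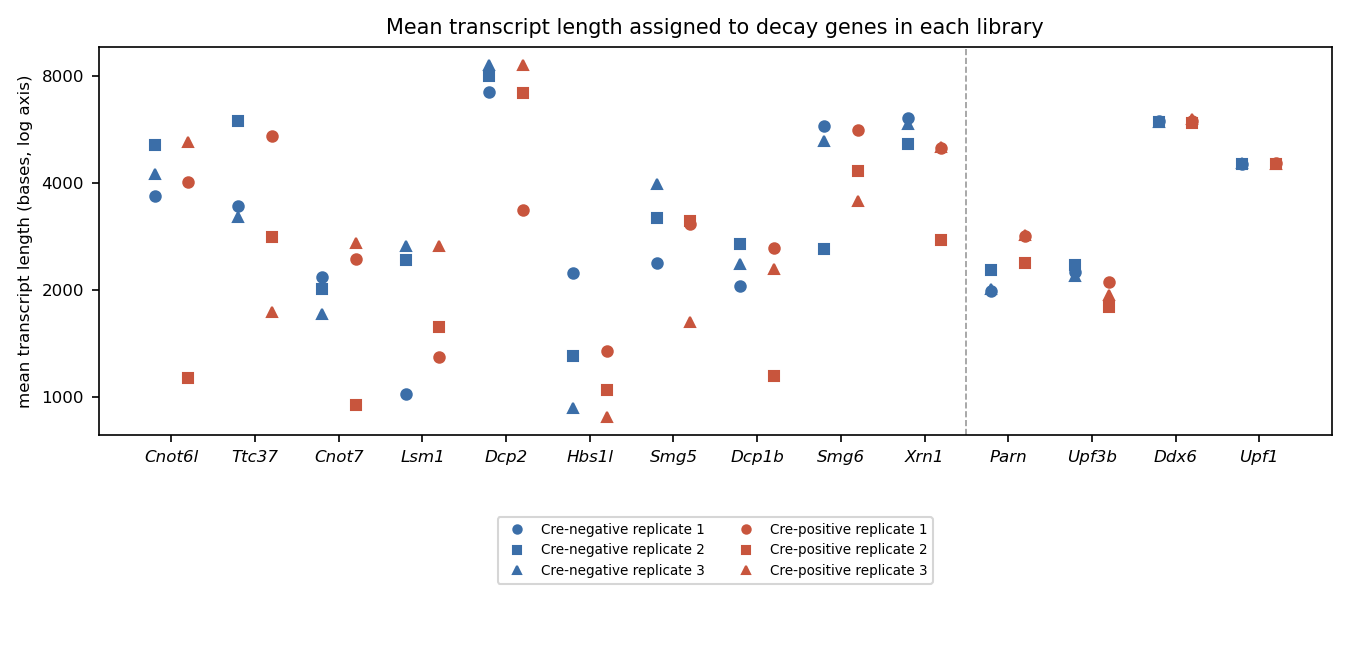
Mean transcript length in bases (log axis) in each library for the 10 genes that varied by more than 2-fold, left of the dashed line, and for Parn, Upf3b, Ddx6 and Upf1, right of it; blue is Cre-negative, red is Cre-positive and marker shape is the replicate number. Cre-positive replicate 2 is the shortest library for Cnot6l, Cnot7, Dcp1b and Xrn1, while Ddx6 and Upf1 are level.

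Several of these proteins exist as related pairs, and the balance within 6 pairs was measured as a log2 ratio of TPM in each library. The first example is the pair of CCR4-NOT catalytic subunits CNOT7 and CNOT8, and the second is UPF3A and UPF3B, the pair whose ratio separated the genotypes. Both are shown because the reads of a pair can be assigned only where its sequences differ. The lines give the coding bases 1 to 150 of Cnot7 and Cnot8, then the 150 aligned coding bases in which Upf3a and Upf3b are most alike, from base 306 of Upf3a and base 261 of Upf3b (5′ to 3′, GENCODE M21 transcripts). Capitals mark the bases that differ within a pair, 45 in the CNOT pair and 36 in the UPF3 pair.
Cnot7: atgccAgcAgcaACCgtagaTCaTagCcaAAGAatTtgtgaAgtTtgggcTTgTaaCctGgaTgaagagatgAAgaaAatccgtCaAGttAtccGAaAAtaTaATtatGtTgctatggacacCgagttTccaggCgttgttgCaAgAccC
Cnot8: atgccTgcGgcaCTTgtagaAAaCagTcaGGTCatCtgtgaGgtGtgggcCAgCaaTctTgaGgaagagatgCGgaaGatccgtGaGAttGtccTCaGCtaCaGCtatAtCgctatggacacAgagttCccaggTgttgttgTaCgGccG
Upf3a: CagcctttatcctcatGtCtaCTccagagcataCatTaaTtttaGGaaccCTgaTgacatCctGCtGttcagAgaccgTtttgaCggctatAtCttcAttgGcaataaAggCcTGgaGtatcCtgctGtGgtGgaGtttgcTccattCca
Upf3b: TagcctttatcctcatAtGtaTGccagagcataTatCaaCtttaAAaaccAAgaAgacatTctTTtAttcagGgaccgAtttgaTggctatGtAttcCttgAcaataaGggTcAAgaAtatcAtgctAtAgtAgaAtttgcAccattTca
Over their aligned coding sequence Cnot7 and Cnot8 were identical at 72.3% of 852 bases and Upf3a and Upf3b at 66.0% of 1195. The longest identical runs were 20 and 15 bases. The other pairs lay between 60.6% for Dcp1a and Dcp1b and 73.6% for Cnot6 and Cnot6l, and no pair shared a stretch of 50 bases anywhere in its transcripts.

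The ratio of Upf3a to Upf3b was -0.84, -1.02 and -1.002 in Cre-negative libraries and -1.29, -1.26 and -1.27 in Cre-positive libraries on the log2 TPM scale. Every Cre-positive library lay below every Cre-negative library, a difference of -0.32 between means of -0.95 ± 0.10 and -1.27 ± 0.02 (SD, n = 3 each). The exact permutation test, two-sided, gave p = 0.1, the smallest that 3 against 3 libraries allow, and 0.6 after adjustment over the 6 pairs. On the CPM scale the difference was -0.07 and the groups overlapped (exact permutation p = 0.4). The ratio of Cnot7 to Cnot8 was 0.03 ± 0.71 and -0.02 ± 0.74 (SD, n = 3 each), a spread within each group far wider than the difference of -0.05 (exact permutation p = 1.0). The mean ratio in Cre-negative and Cre-positive libraries was -2.87 and -2.37 for Xrn1 to Xrn2, 0.43 and 0.95 for Dis3l to Dis3l2, 1.43 and 1.14 for Cnot6 to Cnot6l, and 2.30 and 2.20 for Dcp1a to Dcp1b. In each of these 4 pairs the groups overlapped, with exact permutation p between 0.5 and 0.9, and the SD in Cre-positive libraries was larger than in Cre-negative libraries.

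**Figure D5:**
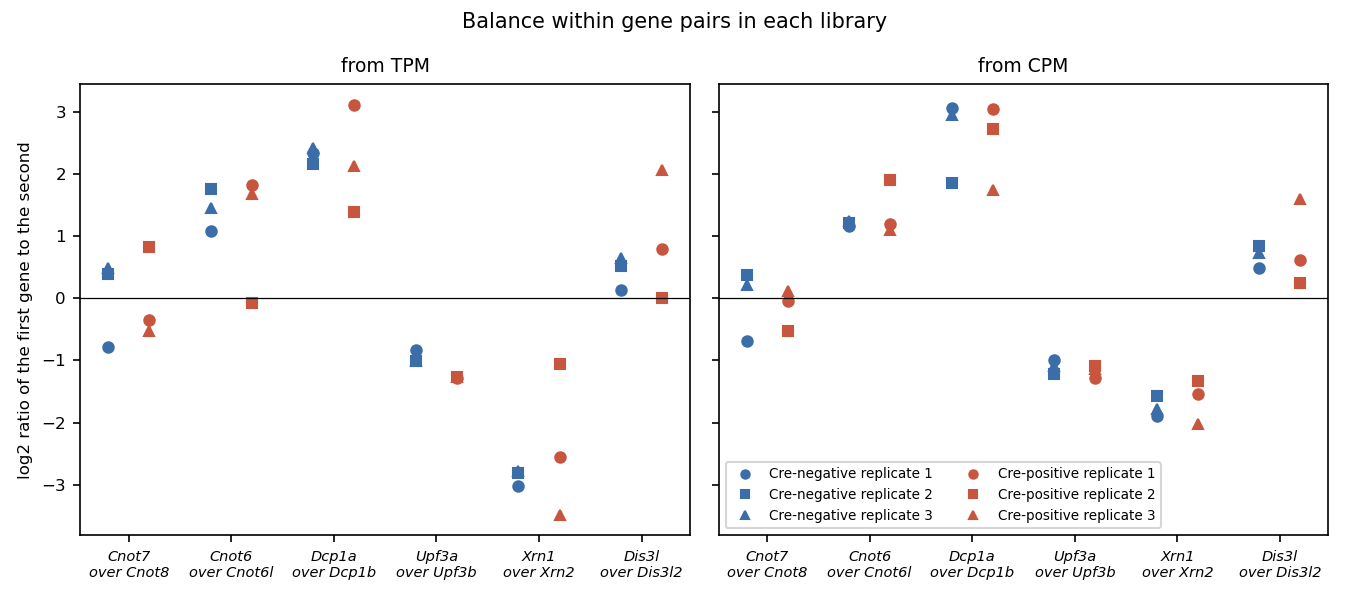
Log2 ratio of the first to the second gene of 6 related pairs in each library, from TPM (left) and from CPM (right); blue is Cre-negative, red is Cre-positive and marker shape is the replicate number. In TPM the Upf3a to Upf3b ratio is lower in all Cre-positive libraries, and in CPM its groups overlap.

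Some decay genes share sequence or overlap other genes, which bears on how reads were assigned to them. In the GENCODE M21 transcripts, 7 of the 43 shared more than 5% of their 50-base stretches with another gene. Pelo shared 41.5%, all with Gm49395, which overlaps it by 739 bases on the same strand and had 0 counts in every library. Hbs1l shared 27.9%, and Gm9923, a gene it shares them with, had counts equal to 4.38% of those of Hbs1l. Lsm5 shared 21.0%, and Gm7846 had 13.4% of its counts. Lsm7 shared 14.3%, Cnot3 8.83%, Cnot8 7.82% and Edc4 6.18%. Gm9207, which shared the most with Cnot3, had 0.15% of the counts of Cnot3. Ints9, which shared fewer stretches with Cnot3 than Gm9207 did, had 35.7%. Gm10146 had 0.80% of the counts of Lsm7, Gm18860 0.40% of those of Cnot8 and Nap1l3 1.36% of those of Edc4. How far such sharing moved reads was not tested, and the levels of these 7 genes are uncertain to that extent. On the opposite strand 13 of the 43 overlapped another gene, 3 of them by at least 500 bases. Edc3 overlapped Clk3 by 1284 bases, and Clk3 had 166.6% of the counts of Edc3. Wdr61 overlapped Dnaja4 by 1581 bases, and Dnaja4 had 10.9% of the counts of Wdr61. The library kit keeps strand, but whether counting used it is not given in the sources used here. The annotation also lists 29 transcripts of the nonsense-mediated decay class in 19 of the 43 genes.

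In the wider circle of factors that work with these genes, edgeR called 0, and it is the only test reported for them. DESeq2 called 4.42% of the genes for which it gave an adjusted p, against 0.122% in edgeR, and its calls for these factors are not given. Of 91 such factors tested, targets of nonsense decay and exosome genes aside, 7 had an unadjusted p under 0.05 in edgeR, beside 8.23% of all tested genes. In CPM 8 were higher and 7 lower in all Cre-positive libraries, beside 7.53% and 7.66%. Among 15 tested deadenylation partners, 0 were called by edgeR and 0 had an unadjusted p under 0.05, with 5 positive and 10 negative log2 fold changes (median -0.08). Noct, a circadian relative of the CCR4 enzymes, was at 51.9, 49.8 and 34.0 CPM in Cre-negative and 55.8, 79.7 and 57.5 CPM in Cre-positive libraries. Tob1, an adaptor that recruits CCR4-NOT, was at 0.177, 7.46 and 4.20 CPM against 12.4, 17.7 and 15.0 CPM. Both were higher in all Cre-positive libraries, with adjusted p of 0.62 and 0.704 (edgeR), and Tob1 was close to absent in Cre-negative replicate 1. Pabpc1, the main cytoplasmic poly(A)-binding protein, was at 2990.0, 3005 and 3396 CPM against 2836, 2946 and 2880.0 CPM, and its log2 fold change was -0.12 (SE 0.06, adjusted p = 0.754, edgeR).

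Among 11 tested decapping partners, 0 were called and 0 had an unadjusted p under 0.05 in edgeR (7 positive and 4 negative, median 0.05). Lsm14b, Lsm8 and Nudt12 had the smallest p, with log2 fold changes of -0.40, -0.46 and -0.39 and overlapping groups. Lsm8, the subunit that replaces LSM1 in the nuclear ring, was at 22.8, 26.3 and 22.9 CPM against 28.5, 8.76 and 15.2 CPM. Among 17 nonsense decay and exon junction partners, 0 were called and 1 had an unadjusted p under 0.05 in edgeR (11 positive and 6 negative, median 0.05). That gene, Pym1, which disassembles exon junction complexes, was at 16.3, 13.1 and 12.3 CPM against 24.7, 20.9 and 22.7 CPM. It was higher in all Cre-positive libraries (log2 fold change 0.72, SE 0.30, adjusted p = 0.572, edgeR). The exon junction core genes Magoh and Magohb stood apart in opposite directions, with log2 fold changes of -0.20 and 0.79 and adjusted p of 0.716 and 0.76 (edgeR), and neither overlapped between groups.

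Among 14 ribosome rescue and quality control partners, 0 were called and 1 had an unadjusted p under 0.05 in edgeR (8 positive and 6 negative, median 0.01). Tcf25 was at 131.4, 122.4 and 124.9 CPM in Cre-negative and 147.0, 150.7 and 149.6 CPM in Cre-positive libraries, without overlap (log2 fold change 0.24, SE 0.10, adjusted p = 0.59, edgeR). Its TPM was far less even, at 61.2, 55.2 and 58.2 against 114.4, 1210 and 70.8. Its mean transcript length was 2739, 2812 and 2827 bases against 1679, 349.1 and 2684 bases. Ltn1, a ubiquitin ligase for stalled nascent chains, and N4bp2 had log2 fold changes of 0.30 each, without overlap for Ltn1 and with it for N4bp2. Transcripts known as targets of nonsense decay were measured as gene totals, and the activity of that route was not tested. Of 15 tested, 0 were called and 3 had an unadjusted p under 0.05 in edgeR, beside 8.23% of all tested genes. Log2 fold changes were positive for 7 and negative for 8 (median -0.01). Gas5, a noncoding snoRNA host, was at 224.8, 187.7 and 162.6 CPM against 211.8, 293.6 and 269.9 CPM, with overlap (log2 fold change 0.43, SE 0.15, adjusted p = 0.466, edgeR). Snhg15, another such host, had a log2 fold change of 0.63 (adjusted p = 0.584, edgeR) and was higher in all Cre-positive libraries. Atf4, a stress response transcription factor, had a log2 fold change of -0.26 (adjusted p = 0.579, edgeR) and was lower in all of them. The 3 with the smallest p thus lay on both sides of 0.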

How the data were processed

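Takara SMARTer Stranded Pico libraries were made from total RNA of 6 sorted BFU-E samples, per the labels. The submitters' processing notes name STAR 2.5.3a, RSEM 1.3.0 and the mouse build mm39 (GRCm39). Annotation release and strand setting: not given in the sources used here. The authors' tables give per gene an expected count, the reads that RSEM assigns to it, per the file headers. TPM, scaled by depth and transcript length, and the mean and effective transcript length were also deposited, per the file headers. FPKM, likewise scaled by the authors per length and depth, was deposited beside them and not used.

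Of 55359 entries, 52081 were paired with a symbol by gene identifier and 3278 were not. Expected counts, 2.64% of them not whole, were rounded. Genes kept by filterByExpr (13117) were tested in edgeR 4.0.16 (R 4.3.3) with glmQLFit and glmQLFTest, TMM factors of 0.988 to 1.017, group as the only term, p-values adjusted by Benjamini-Hochberg over these genes (threshold 0.05). CPM uses TMM-scaled library sizes. The SE is |log2 fold change| over the root of edgeR's F statistic. Intervals of 95% use this SE. Transcript lengths (log2) were tested with limma 3.58.1 in 8739 genes with a TPM above 0 in all 6 libraries. Pair ratios used TPM + 0.1 and a two-sided exact permutation test over libraries. Identity was read from aligned coding sequences in GENCODE M21 (build GRCm38), which was used for names and transcripts only. The edgeR fit was checked on simulated counts and the length test on simulated lengths, and the share of changes they found is not given here.

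Libraries held 89629949 to 124931215 expected counts, and reads were not counted by molecule. The common biological coefficient of variation was 85.4%. Genes detected in just 1 library had 108 reads in the median, so counts overstate the number of molecules behind a value. Pairs of libraries correlated at 0.778 to 0.832 across genes, and none was a copy of another. GFP+ sorting is given for every sample, and how Cre-negative embryos passed it is not stated in the labels. Reads assigned to eGFP numbered 91, 0 and 197 in Cre-negative and 4884, 3311 and 4206 in Cre-positive replicates. Alternatives covered DESeq2 1.42.0, limma-voom, other size factors, other filters, length offsets, log2(TPM + 1), the replicate number as a block and leaving out each library. The count of intervals within 2-fold was added after the data were seen.

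The 43 genes and the other gene lists were chosen with earlier results of these data known, so no list was tested as a set. Values in every library are given for the 12 genes with the smallest p, for the highest and lowest gene by mean TPM in each role group and for Exosc3, and up to 3 genes are named from each partner list. Beyond that rule the CPM of Dcp1b, Dcps, Upf1, Smg1 and Parn and the lengths of Hbs1l were chosen after their values were seen. So were the lengths, TPM and single CPM values of Cnot6l and Cnot7, the lengths and TPM of Tcf25 and the markers named.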

Additional observations from a re-analysis of the deposited data

How the results depend on the processing

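None of the 43 decay genes was called under any of the 15 alternatives, with a smallest adjusted p of 0.069 (Ddx6, DESeq2). Their median log2 fold change stayed between -0.0044 and 0.0584. The number of intervals within 2-fold was 23 with effective length offsets and 23 with log2(TPM + 1), and 33 to 36 when each library was left out. Of 645 values, 53 changed sign, 26 of them under these length-based settings and 25 when a library was left out. All 33 values that moved by more than 1 SD did so under the length-based settings. For Exosc3, DESeq2 gave -0.87 and called it (adjusted p = 0.00296). Without each library in turn its log2 fold change lay between -0.98 and -0.75, with adjusted p up to 0.582. The cause was not tested.

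Whether replicate numbers mark litters is not said. Deviations of same-numbered libraries correlated at 0.026, 0.0534 and 0.0725, each library best with its own number, a hint from the data and not the design, and the numbers were not taken as pairs. With the replicate number as a block, 0 decay genes were called (smallest adjusted p 0.471), the median log2 fold change was 0.02, 36 intervals lay within 2-fold, Exosc3 was at -0.88 (adjusted p = 0.261, edgeR) and 0 genes were called for length.

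Over all genes edgeR called 16 higher and 0 lower, 38 and 18 with the replicate block, 33 and 6 without the low-count filter, 58 and 26 with a mean count of 1000 or more, and 6 and 0 with length offsets. DESeq2 called 314 and 302, limma-voom 20 and 0, and limma on log2(TPM + 1) 6 and 0. Leaving out a library gave 7 to 15 higher and 0 to 3 lower, with 7 and 0 without Cre-positive replicate 2 and 8 and 1 without Cre-positive replicate 1. Reads were not counted by molecule, so the precision behind a value is not known from read depth alone.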

Other observations

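Factors that steer decay to chosen transcripts were measured in the same edgeR fit, the only one reported for them. Among 14 genes that act on AU-rich elements, stem-loops and related sites, 0 were called by edgeR. An unadjusted p under 0.05 was found for 3, beside 8.23% of all tested genes. Log2 fold changes were positive for 2 and negative for 12 (median -0.17, beside -0.01 over all tested genes). Rc3h1, which encodes the stem-loop binding protein Roquin-1, was at 129.8, 141.8 and 136.2 CPM in Cre-negative and 92.3, 99.9 and 81.0 CPM in Cre-positive replicates. Every Cre-positive library was below every Cre-negative library, at a fold of 0.67 (log2 fold change -0.58, SE 0.13), with an unadjusted p of 0.00131 and an adjusted p of 0.214 in edgeR. Its relative Rc3h2 was at 85.1, 90.7 and 91.8 CPM against 61.4, 74.6 and 56.8 CPM, and also did not overlap (log2 fold change -0.47, SE 0.16, adjusted p = 0.4, edgeR). Pum2, a repressor that binds 3' ends of transcripts, had a log2 fold change of -0.22 (adjusted p = 0.572, edgeR), without overlap.

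Among 11 genes of the microRNA silencing complex and its biogenesis, 0 were called and 1 had an unadjusted p under 0.05 in edgeR (7 positive and 4 negative, median 0.06). Ago2, the argonaute that can cut its target, was at 384.1, 339.1 and 340.1 CPM in Cre-negative and 319.8, 271.0 and 303.3 CPM in Cre-positive libraries, lower in all of the latter (log2 fold change -0.25, SE 0.10, adjusted p = 0.533, edgeR). Drosha and Tnrc6c overlapped, at 0.15 and 0.18. Among 9 uridylation enzymes and m6A readers, 0 were called and 1 had an unadjusted p under 0.05 in edgeR (5 positive and 4 negative, median 0.04). Tut1, a terminal uridylyltransferase, was higher in all Cre-positive libraries (log2 fold change 0.49, SE 0.19, adjusted p = 0.534, edgeR), and Ythdc2 and Tut7 overlapped at 0.44 and 0.16. Of 19 tested exosome subunits and cofactors, Exosc3 included, 0 were called by edgeR, with a median log2 fold change of 0.04. An unadjusted p under 0.05 was found for 2 of them, beside 8.23% of all tested genes, and the targeted gene Exosc3 was among these 2 (unadjusted p = 0.00298, edgeR).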
